A study of Mus musculus with 29 samples.

Results

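Messenger RNA levels of 10 genes of insulin and insulin-like growth factor (IGF) signalling, Igf1, Igf1r, Insr, Irs1, Irs2, Ghr, Igfbp3, Igfbp4, Igfbp5 and Igfbp6, were followed in mammary fat of mice from 6 treatment groups. The genes are a list of symbols that was named without a threshold on any measured value. The list was chosen with earlier results of these data known. All 10 of the 10 were found among the 30818 genes of the deposited table. Each of them passed the filter on low values that left 19387 genes for testing.

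Growth hormone binds its receptor, encoded by Ghr, and through the kinase JAK2 and the transcription factor STAT5 raises transcription of Igf1. The IGF-I protein is held by IGF binding proteins, which slow its clearance and limit its access to receptors until proteases release it. Insulin and IGF-I bind related receptor tyrosine kinases, encoded by Insr and Igf1r, which phosphorylate the docking proteins IRS1 and IRS2, and these recruit phosphoinositide 3-kinase (PI3K) and so activate the kinase AKT. In fat cells this pathway moves the glucose transporter GLUT4 to the cell surface, promotes lipid and glycogen synthesis and restrains lipolysis, and in the mammary gland IGF-I is a growth signal for the epithelium.

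RNA-seq was available for 29 libraries of the 9th mammary fat pad, opposite the injected side. All mice were C57BL/6N with a genotype given as wild type, and per the labels E0771 mouse mammary cancer cells were injected into the 4th fat pad 25 weeks after the diets were first assigned. The injection is therefore shared by every group, the controls included, and tissue was taken when the tumors reached endpoint. The Control group (n = 5 libraries) received a control diet throughout. The other groups were first made obese on a 60% high-fat diet. The Obese group (n = 5) remained obese, the LFD group (n = 5) was changed to a low-fat diet without restriction, the LFCR group (n = 5) to a low-fat diet with 30% calorie restriction, the MCR group (n = 4) to a Mediterranean-style diet with 30% calorie restriction, and the ICR group (n = 5) to intermittent calorie restriction, whose percentage the labels do not give. The labels do not give ages, weights or time on each diet. They do not say whether each library is from a separate animal. The p-values below therefore reflect only how these libraries vary, which may be technical, and replicate numbers only name libraries. The tissue and source labels describe normal tissue, whereas the titles begin with the word tumor and the cell line field names E0771.

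Library depth, recovered from the values, was 16403903 to 49026986 reads, and the 5 libraries of sequencing lane 4 had at most 18212783 reads. Markers of fat cells and of luminal epithelium were present in every library, with Adipoq at 16533 or more and Epcam at 1258 or more normalized counts, as mammary fat should have. Libraries differed in immune cell content. The mean log2 value of 13 B cell markers was 5.67 to 6.53 in 8 libraries, whereas the remaining 21 had 10.0 to 12.6. The low ones comprised 2 libraries of Obese (1 and 5), LFD 1, 2 libraries of LFCR (1 and 3) and 3 of MCR (1, 3 and 4). No Control or ICR library was low. T cell markers moved with them, with means of 10.8 in Control and 7.49 in MCR. In bulk tissue, fewer cells of a type and less RNA per cell cannot be told apart.

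Levels are given as normalized counts, that is reads divided by a size factor for each library. Per kilobase of annotated exon, Igfbp5 had the highest mean level over the 29 libraries (4633 normalized counts per kb), ahead of Igfbp4 (3770 per kb) and Ghr (3652 per kb). Igfbp6 (1479 per kb) and Igfbp3 (1347 per kb) followed, and Igf1 stood at 798 per kb. The docking protein genes and the insulin receptor gene were lower on this scale, with Irs2 at 580, Insr at 537 and Irs1 at 435 per kb, and Igf1r was lowest at 153 per kb. Ranges over libraries overlapped for neighbours in this order, from 1990 to 9138 per kb for Igfbp5 and from 1814 to 5987 per kb for Igfbp4, while every library of Igf1r lay between 118 and 191 per kb. Insulin receptor RNA was therefore measured at a higher level per length than IGF-I receptor RNA in every library, since the lowest Insr value was 328 per kb.

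**Figure D1:**
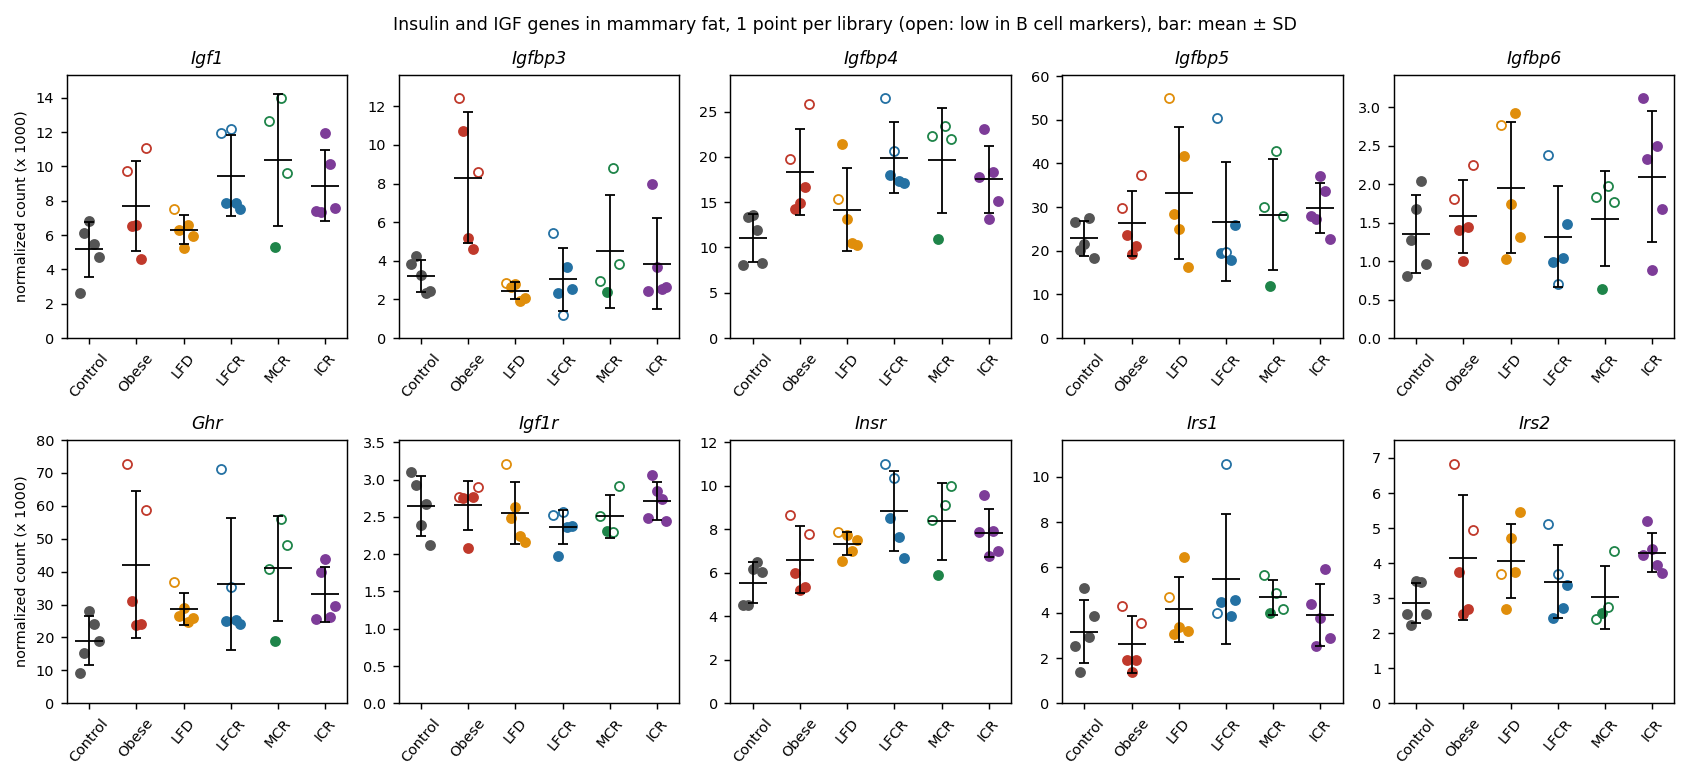
Normalized counts (y axis, in units of 1000) of the 10 genes in the 6 groups (x axis), with 1 point per library, open for the 8 libraries low in B cell markers, and bars for the group mean ± SD. Igfbp3 in the 5 Obese libraries (4615 to 12408) lies above the Control and LFD libraries, and Igf1r shows no group apart from the others.

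Differences between groups were tested with limma on the log2 values over all genes, and a gene was called changed at a Benjamini-Hochberg adjusted p under 0.05. Against Control, 3 of the 10 genes were higher in Obese and 0 were lower, where 12.9% of all tested genes were called, 9.44% as higher. LFD differed from Obese in 1 of the 10 genes, which was lower, with 5.98% of all genes called, 3.28% as lower. LFCR differed from Obese in 2 of the 10 genes, 1 higher and 1 lower, with 21.4% of all genes called, 11.9% as higher and 9.42% as lower. For MCR and for ICR against Obese, 0 of the 10 genes passed, with 12.4% and 9.21% of all genes called. By limma 2 of the 10 had an unadjusted p under 0.05 in the MCR comparison, beside 26.3% of all tested genes. In the ICR comparison 1 of the 10 did, beside 23.1% of all tested genes. The voom fit on the recovered reads called 0 of the 10 in each. These 5 comparisons share the Obese libraries, so their values are not independent of each other. The median log2 difference of the 10 genes was 0.35 for Obese against Control, beside -0.03 over all tested genes, and it lay between -0.11 and 0.17 in the 4 diet comparisons with Obese.

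**Figure D2:**
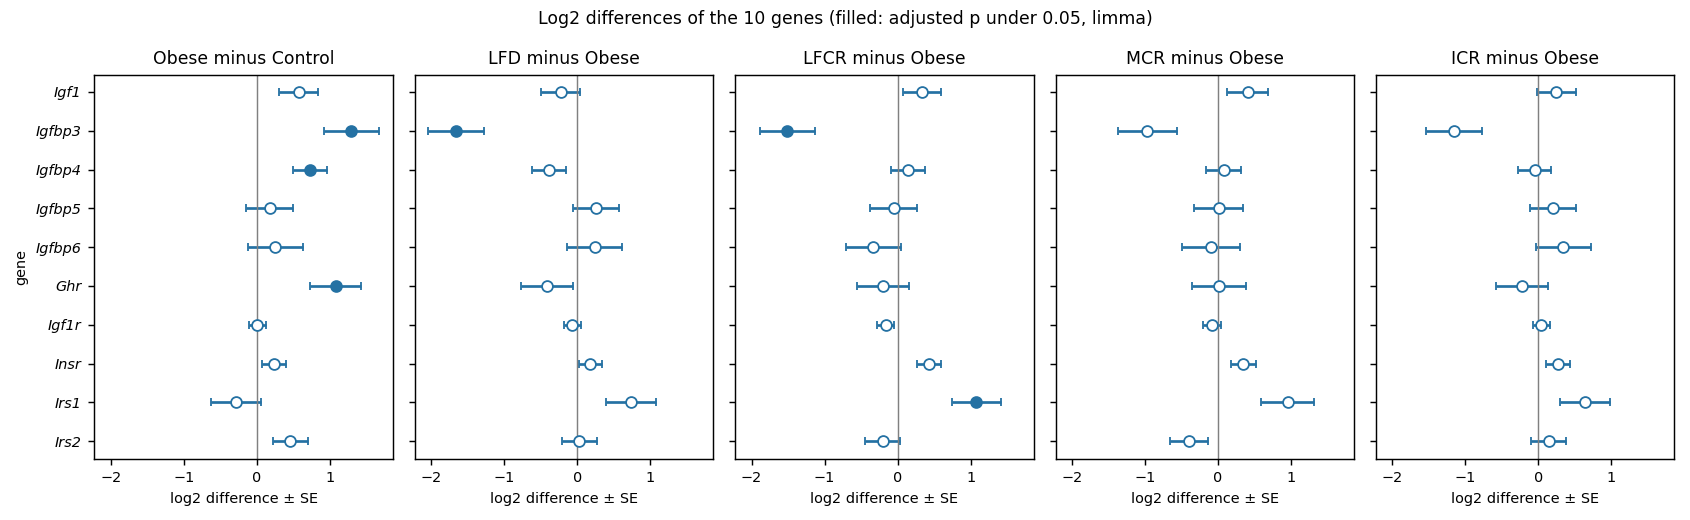
Log2 differences ± SE (x axis) of the 10 genes (y axis) in 5 comparisons from limma, filled where the adjusted p was under 0.05. Igfbp3 is the gene filled in 3 of the 5 panels, at 1.30 in Obese against Control, -1.66 in LFD against Obese and -1.51 in LFCR against Obese.

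Igfbp3 encodes the main carrier of IGF-I in blood, which also occurs in tissues. It had the log2 differences of largest size among the 10 genes in the comparisons of Obese with Control and of LFD, LFCR, MCR and ICR with Obese. The gene lies on the minus strand of chromosome 11 at 7206086 to 7213923 (GRCm38, GENCODE vM21). The Control libraries had 3809, 4258, 3276, 2308 and 2426 normalized counts and the Obese libraries 12408, 10701, 5165, 4615 and 8615. Every Obese library was above every Control library. The group means were 3215 ± 850 (SD, n = 5) in Control and 8301 ± 3396 (SD, n = 5) in Obese, and the rise of 1.30 ± 0.38 (SE) on the log2 scale passed the limma test with an adjusted p of 0.0256. Within the 4 lanes that held both groups, Obese was higher in 4, by 0.65 to 1.70. The call was lost when Control 4 (adjusted p = 0.0535), Control 5 (0.0681), Obese 1 (0.0966), Obese 2 (0.0589) or Obese 5 (0.0677) was left out of the limma fit. It was also lost without the 8 libraries low in B cell markers (difference 1.02, adjusted p = 0.122) and with the mean of 10 luminal epithelium markers as a covariate (1.02, adjusted p = 0.134).

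On the unrestricted low-fat diet Igfbp3 was back in the range of the Control libraries or below it. The LFD libraries had 2849, 2641, 2807, 1905 and 2080 normalized counts, with a mean of 2457 ± 435 (SD, n = 5). No LFD library reached the lowest Obese library. Igfbp3 fell by 1.66 ± 0.38 (SE) on the log2 scale relative to Obese (limma, adjusted p = 0.0114), and within lanes LFD was lower in 4 of 4, by -2.11 to -0.87. The call was kept in each of the 10 fits that left out 1 library. It was lost with the luminal marker covariate (-1.25, adjusted p = 0.563) and without the 8 libraries low in B cell markers (-1.44, adjusted p = 0.0596). The luminal list itself differed between these groups, with a mean log2 value of 11.3 ± 0.62 (SD, n = 5) in LFD and 10.0 ± 0.31 (SD, n = 5) in Obese, and its part in the result was not tested beyond that covariate.

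With calorie restriction Igfbp3 varied more between libraries. The LFCR libraries had 5454, 2329, 1186, 3663 and 2548 normalized counts (mean 3036 ± 1612, SD, n = 5), and 4 of the 5 lay below every Obese library. Igfbp3 fell by 1.51 ± 0.38 (SE) on the log2 scale against Obese (limma, adjusted p = 0.00536), was lower in 4 of 4 lanes, and passed in all 10 fits without 1 library and in the 6 other alternative fits. In MCR, 3 libraries had 2386, 2929 and 3828 normalized counts and MCR 3 had 8799. The MCR difference of -0.97 ± 0.40 (SE) did not pass (limma, adjusted p = 0.118), and it passed without MCR 3 (adjusted p = 0.0419). In ICR, 4 libraries lay between 2432 and 3700 and ICR 2 had 7976. The ICR difference of -1.16 ± 0.38 (SE) did not pass (limma, adjusted p = 0.0552), and it passed without ICR 2 (0.0160), Obese 3 (0.0486) or Obese 4 (0.0307). In each of these groups 1 library therefore lay within the Obese range while the others lay below it.

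Igfbp4 encodes a binding protein that inhibits IGF action and is the best known substrate of the protease pappalysin-1. It lies on the plus strand of chromosome 11 at 99041244 to 99054392 (GRCm38). The Control libraries had 8010, 13400, 13524, 11869 and 8334 normalized counts and the Obese libraries 19771, 14250, 14889, 16622 and 25871. The groups did not overlap, although the highest Control library was close to the lowest Obese library. Igfbp4 rose by 0.73 ± 0.23 (SE) on the log2 scale in Obese (limma, adjusted p = 0.0379), and Obese was higher in 4 of 4 lanes, by 0.09 to 1.30. The difference was 0.50 with an adjusted p of 0.261 without the 8 libraries low in B cell markers, 2 of which are the highest Obese libraries. It was also lost when only the Control and Obese libraries were fitted (adjusted p = 0.0704), with lane as a term (0.0759), with the luminal covariate (0.182), and without Control 1 (0.118), Control 5 (0.105), Obese 1 (0.102) or Obese 5 (0.138).

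No diet group passed the test against Obese in Igfbp4, with adjusted p-values from 0.372 in LFD to 0.923 in ICR (limma). The LFD mean was 14147 ± 4581 (SD, n = 5), between Control (11028 ± 2690, SD, n = 5) and Obese (18281 ± 4752, SD, n = 5). The calorie-restricted groups had means of 19906 ± 3919 in LFCR (SD, n = 5), 19633 ± 5800 in MCR (SD, n = 4) and 17497 ± 3730 in ICR (SD, n = 5). These 3 means lay within 1 SD of the Obese mean, while the Igfbp3 means of the same groups were below those of Obese.

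The sequences upstream of Igfbp3 and Igfbp4 are shown because these are the 2 binding protein genes that were called in Obese. Each run holds the 250 bases before the RefSeq start site, read 5′ to 3′ on the strand of the gene, from chr11:7213924-7214173 for Igfbp3 (minus strand) and chr11:99040994-99041243 for Igfbp4 (plus strand), build GRCm38.p6. Neither holds any of 5 motifs that were searched on both strands, the forkhead box O core GTAAACA, the insulin response element CAAAACA, the STAT5 core TTCNNNGAA, the E-box CACGTG and the GC box GGGCGG, so no base is in capitals.
Igfbp3: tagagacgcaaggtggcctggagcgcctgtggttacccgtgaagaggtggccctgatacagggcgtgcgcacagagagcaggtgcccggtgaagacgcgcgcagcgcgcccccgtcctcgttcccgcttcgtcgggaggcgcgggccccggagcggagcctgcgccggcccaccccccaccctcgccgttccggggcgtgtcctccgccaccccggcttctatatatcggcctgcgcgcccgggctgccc
Igfbp4: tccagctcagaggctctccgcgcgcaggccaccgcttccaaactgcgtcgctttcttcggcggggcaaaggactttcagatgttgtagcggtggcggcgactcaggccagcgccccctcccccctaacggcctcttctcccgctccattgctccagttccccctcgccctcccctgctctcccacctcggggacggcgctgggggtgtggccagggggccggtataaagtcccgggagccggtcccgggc
Of 32851 promoter sequences of the same length, 3.17% hold the forkhead core, 5.56% the insulin response element, 7.02% the STAT5 core, 6.02% the E-box and 32.7% the GC box. Promoters were matched for 9 of the 10 genes.

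Igfbp5 and Igfbp6 were called in none of the comparisons described here. Igfbp5, whose product is secreted by mammary cells and binds extracellular matrix, lies on chromosome 1 at 72857932 to 72874884. Its means ran from 22846 ± 4038 (SD, n = 5) in Control to 33261 ± 15177 (SD, n = 5) in LFD, and single libraries from 11950 in MCR 2 to 54884 in LFD 1. The spread within the LFD, LFCR and MCR groups was larger than the distance between any 2 group means. Igfbp6, whose product prefers IGF-II, lies on chromosome 15 at 102144362 to 102149511, and its means ran from 1317 ± 657 (SD, n = 5) in LFCR to 2099 ± 849 (SD, n = 5) in ICR. Its libraries ranged from 637 in MCR 2 to 3112 in ICR 1, and every pair of groups overlapped.

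Igf1 encodes IGF-I, the ligand of the IGF-I receptor, and lies on the plus strand of chromosome 10 at 87858265 to 87937042. The Control libraries had 2651, 6147, 6823, 5505 and 4697 normalized counts. The Obese libraries had 9734, 6504, 6562, 4615 and 11050, with the values of Obese 1 and Obese 5 above every Control library and the other 3 within the Control range. The difference of 0.57 ± 0.27 (SE) did not pass (limma, adjusted p = 0.152). The LFD libraries had 7502, 6313, 5250, 6570 and 5940, the group with the smallest SD, and a mean of 6315 ± 829 (SD, n = 5).

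All 3 calorie-restricted groups had a higher Igf1 mean than Control, LFD and Obese. The differences from Obese did not pass. They were 0.33 ± 0.27 (SE) on the log2 scale in LFCR (limma, adjusted p = 0.411), 0.41 ± 0.28 (SE) in MCR (0.369) and 0.24 ± 0.27 (SE) in ICR (0.641). The LFCR libraries had 11953, 7872, 12195, 7845 and 7500 normalized counts, the MCR libraries 12678, 5318, 13963 and 9600, and the ICR libraries 7419, 7327, 11939, 10129 and 7554. Every LFCR and ICR library was above every Control library, whereas MCR 2 lay inside the Control range. The mean of the 3 restricted groups exceeded Control by 0.90 ± 0.22 (SE) on the log2 scale (limma, adjusted p = 0.00412), was higher in 4 of 5 lanes, and was called in all 19 fits that left out 1 library. It exceeded LFD by 0.55 ± 0.22 (SE), which did not pass (adjusted p = 0.146), although it was higher in 5 of 5 lanes, by 0.25 to 0.71, and passed without MCR 2 (adjusted p = 0.0421). Without the 8 libraries low in B cell markers the differences were 0.53 (adjusted p = 0.104) against Control and 0.24 (adjusted p = 0.763) against LFD.

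Ghr encodes the growth hormone receptor and lies on the minus strand of chromosome 15 at 3317760 to 3583492. The Control libraries had 9271, 15257, 27961, 23990 and 18906 normalized counts and the Obese libraries 72779, 30957, 23671, 24230 and 58790. Obese 1 and Obese 5 were far above the Control libraries, while Obese 3 and Obese 4 lay within the Control range. Ghr rose by 1.08 ± 0.35 (SE) on the log2 scale in Obese (limma, adjusted p = 0.0428), and Obese was higher in 3 of 4 lanes. Without the 8 libraries low in B cell markers, Obese 1 and Obese 5 among them, the difference was 0.55 with an adjusted p of 0.281, and each of the 5 other alternative fits gave an adjusted p between 0.0545 and 0.122. The call was also lost without Control 1 (0.149), Control 2 (0.0808), Control 5 (0.0740), Obese 1 (0.163) or Obese 5 (0.141).

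Ghr in LFD was between 24768 and 36778 normalized counts, with a mean of 28586 ± 4851 (SD, n = 5). The means of the restricted groups were 36129 ± 20060 in LFCR (SD, n = 5), 40996 ± 15930 in MCR (SD, n = 4) and 33065 ± 8275 in ICR (SD, n = 5). None of the 4 diets passed the test against Obese (limma, adjusted p from 0.580 to 0.986). Against Control, the mean of the 3 restricted groups was higher by 0.94 ± 0.29 (SE) on the log2 scale (limma, adjusted p = 0.0151), a call that was lost without Control 1 (0.0836), without Control 2 (0.0523) and without the 8 libraries low in B cell markers (0.47, adjusted p = 0.172).

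Insr encodes the insulin receptor and lies on the minus strand of chromosome 8 at 3122061 to 3279617. The Control libraries had 4519, 4505, 6160, 6474 and 6021 normalized counts, and the Obese libraries 8636, 5988, 5196, 5331 and 7784. The 2 groups overlapped in 3 Obese libraries. The LFD libraries, at 7861, 6554, 7729, 7011 and 7526, were all above Control, with a difference of 0.42 ± 0.16 (SE) that did not pass (limma, adjusted p = 0.394). In that comparison 0 of the 10 genes and 0% of all tested genes were called, while by limma 2425 genes, 1 of them among the 10, had an unadjusted p under 0.05, and voom called 0.

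The group means of Insr were highest in the restricted groups. The LFCR libraries had 11004, 8508, 10349, 7642 and 6656 normalized counts, the MCR libraries 8435, 5909, 9099 and 9987, and the ICR libraries 7874, 9586, 6753, 7907 and 6992. Every LFCR and ICR library was above every Control library, whereas MCR 2, at 5909, lay inside the Control range. The mean of the 3 restricted groups exceeded Control by 0.58 ± 0.13 (SE) on the log2 scale (limma, adjusted p = 0.00310). It was higher in 5 of 5 lanes and called in all 19 fits without 1 library. Without the 8 libraries low in B cell markers, which leaves 1 MCR library, the difference was 0.36 and the call was lost. Against Obese, the differences were 0.43 ± 0.16 (SE) in LFCR (limma, adjusted p = 0.0628), 0.35 ± 0.17 (SE) in MCR (0.204) and 0.27 ± 0.16 (SE) in ICR (0.347), none of which passed. The LFCR difference passed without Obese 1 (0.0232), Obese 5 (0.0420) or LFCR 5 (0.0247), and the MCR difference without MCR 2 (0.0382). Without the 8 libraries low in B cell markers, Insr was called in LFCR (0.46, adjusted p = 0.0424) and in ICR (0.50, adjusted p = 0.0251).

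Igf1r encodes the IGF-I receptor and lies on the plus strand of chromosome 7 at 67952827 to 68233668. It had the narrowest range of the 10 genes, with group means from 2363 ± 232 (SD, n = 5) in LFCR to 2716 ± 253 (SD, n = 5) in ICR. The Control mean was 2643 ± 400 and the Obese mean 2654 ± 323 (SD, n = 5 each). Single libraries lay between 1979 in LFCR 2 and 3212 in LFD 1, and no pair of groups was without overlap. No comparison called Igf1r, with an adjusted p of 0.352 or more in each (limma).

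**Figure D3:**
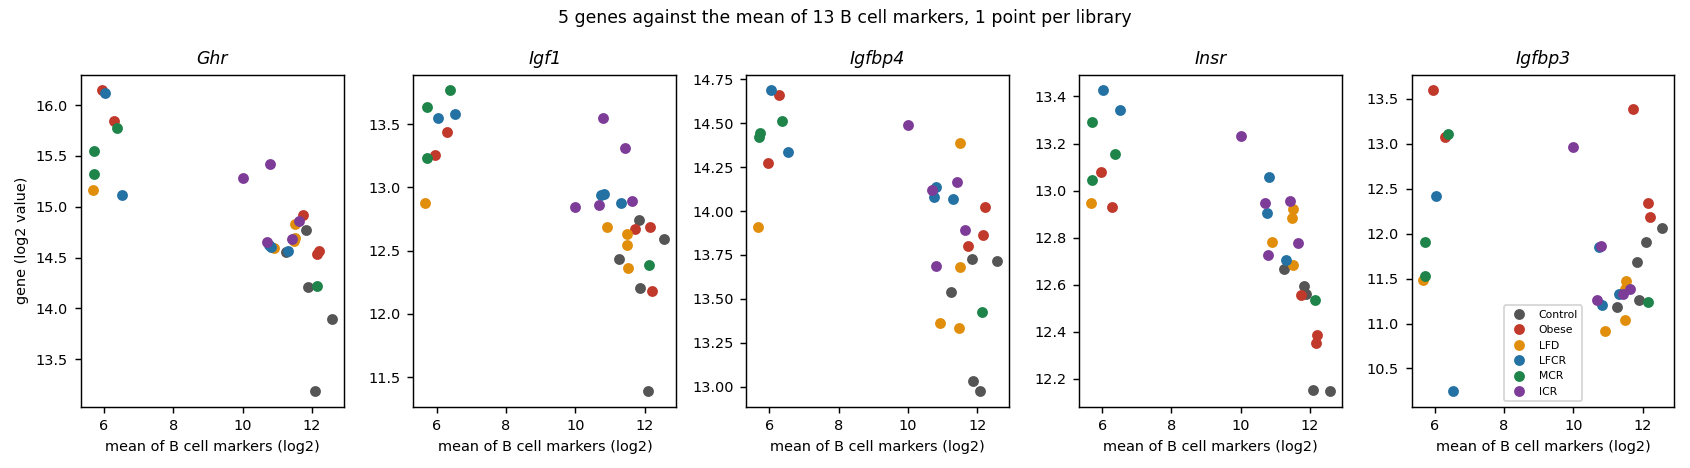
Log2 values (y axis) of Ghr, Igf1, Igfbp4, Insr and Igfbp3 against the mean log2 value of 13 B cell markers (x axis), with 1 point per library coloured by group. The 8 libraries at 5.67 to 6.53 on the x axis include the 2 highest Obese libraries of Ghr, Igf1, Igfbp4 and Insr, and all Control libraries lie among the other 21.

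In each of the 4 groups that held both kinds of library, 9 of the 10 genes had a higher mean in the libraries low in B cell markers than in the others. The exception was Irs2, which was lower in the 1 such LFD library (3692 normalized counts) than on average in the other LFD libraries (4154). The sizes are given for the genes that were called against Control in the restricted diets, each in a group where the split was large, and then in LFD. In Obese, Ghr had a mean of 65785 ± 9892 (SD, n = 2) in the low libraries and 26286 ± 4055 (SD, n = 3) in the others, beside 19077 ± 7312 (SD, n = 5) in Control. Igf1 in LFCR had means of 12074 ± 171 (SD, n = 2) and 7739 ± 207 (SD, n = 3) in the same split. Insr in LFCR had means of 10676 ± 463 (SD, n = 2) and 7602 ± 926 (SD, n = 3). Igfbp4 in MCR was between 21921 and 23358 in the 3 low libraries and 10981 in MCR 2, the only other MCR library. The same genes differed less in LFD, where 1 library was low. LFD 1 had 36778 normalized counts for Ghr, 7502 for Igf1, 7861 for Insr and 15383 for Igfbp4. The other LFD libraries had means of 26538, 6018, 7205 and 13838 in the same order (n = 4). The split was made on marker genes that are not among the 10, and no test was made between its sides. How many of all tested genes were higher in the low libraries was not counted, so the count of the 10 is not set against them. Fat cell markers had mean log2 values of 14.68 ± 0.65 in Control, 15.34 ± 0.52 in Obese and 15.43 ± 0.07 in LFD (SD, n = 5 each). In the restricted groups they were 15.97 ± 0.35 in LFCR (SD, n = 5), 15.72 ± 0.52 in MCR (SD, n = 4) and 15.79 ± 0.27 in ICR (SD, n = 5), and their part in the differences of Igf1, Ghr, Insr and Igfbp4 from Control was not tested.

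Irs1 encodes the docking protein IRS1, a main carrier of the insulin signal in fat cells, and lies on the minus strand of chromosome 1 at 82233101 to 82291416. Its level in LFCR was above Obese. The Obese libraries had 4309, 1892, 1377, 1892 and 3562 normalized counts and the LFCR libraries 3974, 4475, 10574, 3855 and 4547. All LFCR libraries except LFCR 3 lay between 3855 and 4547, a range that 1 Obese library reached. Irs1 rose by 1.08 ± 0.34 (SE) on the log2 scale in LFCR (limma, adjusted p = 0.0232), and it was higher in 3 of 4 lanes, by up to 2.47. The call was lost when only the LFCR and Obese libraries were fitted (adjusted p = 0.0696), and without LFCR 3 (0.0920), Obese 2 (0.0614), Obese 3 (0.0790) or Obese 4 (0.0553).

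The other restricted groups gave Irs1 differences from Obese in the same direction that did not pass. The MCR libraries had 5677, 3994, 4876 and 4149 normalized counts, with a difference of 0.95 ± 0.36 (SE) (limma, adjusted p = 0.0829) that passed without Obese 1 (0.0373). The ICR libraries had 4367, 2546, 3750, 5940 and 2865, with a difference of 0.64 ± 0.34 (SE) (adjusted p = 0.264). Without the 8 libraries low in B cell markers, Obese kept the 3 libraries at 1377 to 1892, and Irs1 was called in LFCR (1.32, adjusted p = 0.0246) and in ICR (1.12, adjusted p = 0.0389). Against Control, whose libraries ranged from 1382 to 5105, the joint mean of the restricted groups was 0.61 higher (adjusted p = 0.0804), and that difference passed without Control 3 (0.0336) and with the luminal covariate (0.90, adjusted p = 0.0121).

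Irs2 encodes the related docking protein IRS2 and lies on the minus strand of chromosome 8 at 10984681 to 11008458. It was called in none of the comparisons. The Control libraries had 2559, 2243, 3478, 3448 and 2554 normalized counts and the Obese libraries 6834, 3747, 2558, 2683 and 4936. The Obese mean of 4152 ± 1779 (SD, n = 5) was above the Control mean of 2856 ± 568 (SD, n = 5), with 2 Obese libraries within the Control range (limma, adjusted p = 0.206). The ICR libraries, from 3726 to 5209, did not overlap Control. Exons of Irs1 and Irs2 each overlap a gene on the opposite strand, Gm9747 and 9530052E02Rik. How reads were counted with respect to strand is not stated, so reads of these pairs may be shared.

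The upstream sequences of Irs1 and Irs2 are shown because the docking protein genes, of which Irs1 was called and Irs2 was not, hold several of the searched motifs. Each run holds the 250 bases before the RefSeq start, on the minus strand, from chr1:82291440-82291689 for Irs1 and chr8:11008930-11009179 for Irs2 (GRCm38.p6). Capitals mark matches to the E-box CACGTG, the insulin response element CAAAACA, here on the reverse strand as TGTTTTG, and the GC box GGGCGG.
Irs1: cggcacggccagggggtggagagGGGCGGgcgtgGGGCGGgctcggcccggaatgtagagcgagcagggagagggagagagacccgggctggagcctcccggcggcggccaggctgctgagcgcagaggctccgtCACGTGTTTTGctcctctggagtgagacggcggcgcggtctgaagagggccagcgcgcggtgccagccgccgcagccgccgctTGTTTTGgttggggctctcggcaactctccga
Irs2: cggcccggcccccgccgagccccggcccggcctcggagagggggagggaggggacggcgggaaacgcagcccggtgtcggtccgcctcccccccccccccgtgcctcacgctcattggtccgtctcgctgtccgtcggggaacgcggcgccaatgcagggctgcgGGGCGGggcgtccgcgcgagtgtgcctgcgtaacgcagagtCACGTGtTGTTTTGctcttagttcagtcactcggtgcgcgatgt
In Irs1 the E-box ran from 115 to 110 bases before the start and overlapped an insulin response element from 111 to 105, and a second such element lay at 32 to 26. In Irs2 the E-box ran from 44 to 39 bases and the insulin response element from 37 to 31 before the start. Irs1 also held 2 GC boxes and Irs2 held 1. An E-box and an insulin response element occurred together in 0.295% of the 32851 promoters, a pair that was picked after the matches were seen. A match describes letters in this window only.

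Set against Control, the 3 calorie-restricted diets together had 4 of the 10 genes higher, Igf1, Insr, Ghr and Igfbp4, and 0 lower, where 40.4% of all tested genes were called, 19.9% as higher. Against LFD they had 0 of the 10 called, with 3.33% of all genes called. By limma 2 of the 10 had an unadjusted p under 0.05 there, beside 20.3% of all tested genes, and voom called 0 of the 10. Differences among LFCR, MCR and ICR were tested with 1 F-test per gene, which called 0 of the 10 genes and 0% of all genes, and the lowest adjusted p among the 10 was 0.475. In that F-test 2506 genes and 0 of the 10 had an unadjusted p under 0.05, and voom called 0.

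The other genes of the pathway were taken from 11 lists with 97 genes besides the 10, of which 90 were tested. They came with earlier results of these data known. In Obese, 11 of the 90 were higher than in Control and 5 lower, where 12.9% of all tested genes were called. Against Obese, LFD had 5 higher and 1 lower (5.98% of all genes called) and LFCR 17 higher and 5 lower (21.4% of all genes). MCR had 8 higher and 4 lower (12.4% of all genes), and ICR 14 higher and 3 lower (9.21% of all genes). The shares of the 90 genes called were 17.8%, 6.67%, 24.4%, 13.3% and 18.9% in the same order, so those of LFD, LFCR and MCR were near the share of all genes. The median log2 difference of the 90 genes stayed between -0.06 and 0.05 in these comparisons, near that of all genes.

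Insulin effectors of fat cells were the list with the most calls in LFCR, with 6 of its 10 genes higher and 0 lower, where 21.4% of all tested genes were called, 11.9% as higher. The median log2 difference of the list was 1.02, beside -0.04 over all genes. MCR had 4 and ICR 5 of the 10 higher, where 12.4% and 9.21% of all genes were called, LFD had 0, and the medians were 0.57, 0.60 and 0.23. Slc2a4, which encodes GLUT4, had means of 2694 ± 1008 (SD, n = 5) normalized counts in Obese and 10957 ± 1708 (SD, n = 5) in LFCR, and the 2 groups did not overlap. It rose by 2.08 ± 0.37 (SE) on the log2 scale in LFCR (limma, adjusted p = 0.000239) and by 1.71 ± 0.39 (SE) in MCR (0.00487). Gys1, the muscle-type glycogen synthase, rose by 1.82 ± 0.26 (SE) in LFCR (limma, adjusted p = 3.29e-05), 1.47 ± 0.28 (SE) in MCR (0.00123) and 1.24 ± 0.26 (SE) in ICR (0.00339). Pde3b, the phosphodiesterase through which insulin lowers cyclic AMP and lipolysis, rose by 1.43 ± 0.25 (SE) in LFCR (limma, adjusted p = 0.000185) and 1.21 ± 0.25 (SE) in ICR (0.00238). Srebf1, a transcription factor of lipid synthesis, rose by 1.67 ± 0.30 (SE) in LFCR (limma, adjusted p = 0.000319). These LFCR and ICR calls held in every alternative fit. Slc2a4 and Srebf1 were also called in ICR (limma, adjusted p = 0.0381 and 0.0259). Those 2 calls were kept in 3 and 8 of the 10 fits that left out 1 library. The MCR calls were lost without the 8 libraries low in B cell markers, which leaves 1 MCR library. Of 11 tested FoxO factors and insulin-suppressed genes, 3 were higher and 0 lower in LFCR, where 11.9% of all genes were called higher. The median was -0.07, beside -0.04 over all genes. Pck1 rose by 1.29 ± 0.34 (SE) in LFCR (limma, adjusted p = 0.00691), 1.38 ± 0.34 (SE) in ICR (0.00935) and 1.20 ± 0.34 (SE) in LFD (0.0342). The LFD call of Pck1 was kept in 4 of the 10 fits that left out 1 library and in 3 of the 6 other alternative fits. Klf15 rose by 1.34 ± 0.30 (SE) in LFCR (0.00207) and 1.29 ± 0.32 (SE) in MCR (0.00872). Fat cell markers had higher means in these groups than in Obese, as given above, and their part in the rise of these genes was not tested.

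**Figure D4:**
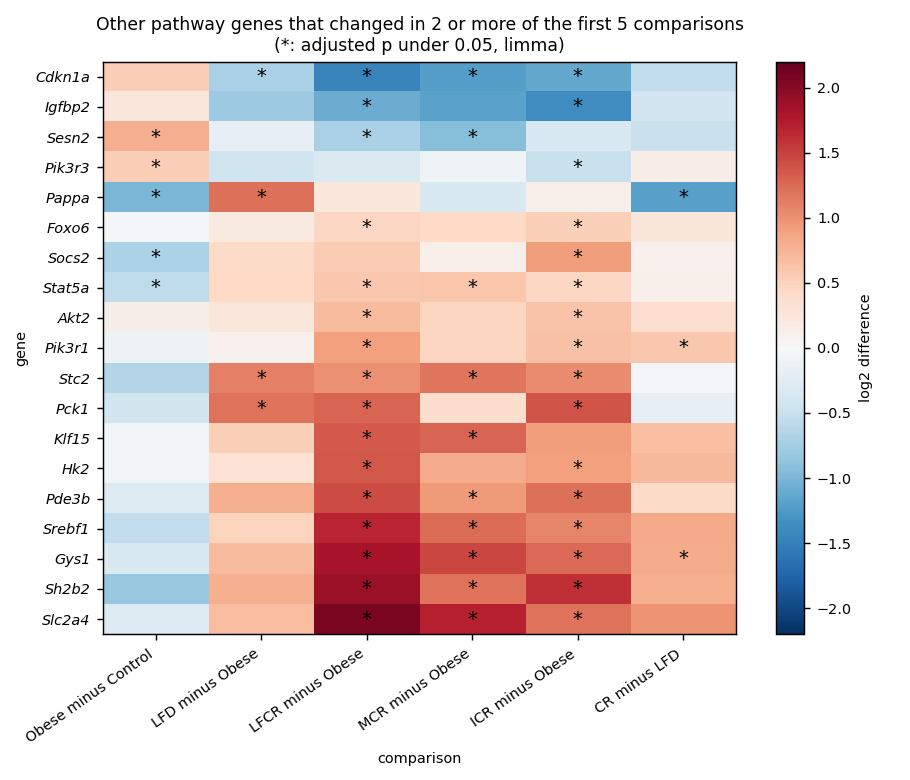
Log2 differences (colour) of pathway genes other than the 10 that were called in at least 2 of the first 5 comparisons (rows), in 6 comparisons (columns), with a star at an adjusted p under 0.05 (limma). Slc2a4, Gys1, Pde3b, Srebf1 and Sh2b2 are starred in LFCR, MCR and ICR against Obese, and Cdkn1a is lower in all 4 diets. With 1 library left out, the Slc2a4 star in ICR was kept in 3 of 10 fits. The Pde3b star in MCR was kept in 5 of 9 and the Cdkn1a star in LFD in 2 of 10.

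Signal carriers next to the receptor and docking proteins changed in the same comparisons. Sh2b2, an adaptor of the insulin receptor in fat cells, had means of 543 ± 86 (SD, n = 5) in Obese, 2159 ± 719 (SD, n = 5) in LFCR and 1739 ± 494 (SD, n = 5) in ICR. Its rise was 1.90 ± 0.30 (SE) on the log2 scale in LFCR (limma, adjusted p = 7.16e-05) and 1.60 ± 0.30 (SE) in ICR (0.00118). Pik3r1, the main regulatory subunit of PI3K, rose by 0.90 ± 0.19 (SE) in LFCR (limma, adjusted p = 0.00149), and Akt2, the AKT form most tied to glucose uptake, by 0.70 ± 0.16 (SE) (0.00304). Grb14, an inhibitor that binds the activated insulin receptor, was the gene of its list with the lowest adjusted p between Obese and Control. Its means were 349 ± 191 (SD, n = 5) in Control and 1156 ± 380 (SD, n = 5) in Obese. The call of this rise, 1.72 ± 0.38 (SE) (limma, adjusted p = 0.00509), was lost with the luminal covariate (0.0569). Of the 10 receptor-proximal inhibitors on that list, 2 were called higher and 1 lower, where 12.9% of all tested genes were called. Enpp1, which encodes another such inhibitor, was the lower gene, by -1.03 ± 0.32 (SE) (0.0369). It was called in 5 of the 10 fits that left out 1 library. The median log2 difference of the list was -0.16, beside -0.03 over all genes.

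On the growth hormone side, Ghr was called higher and Stat5a lower in Obese than in Control. Stat5a, which encodes a STAT5 protein, had means of 2955 ± 654 (SD, n = 5) in Control and 1963 ± 247 (SD, n = 5) in Obese. It fell by 0.56 ± 0.14 (SE) on the log2 scale (limma, adjusted p = 0.00845), and that call was lost with only the 2 groups fitted (0.0667), with the luminal covariate (0.131) and without the 8 libraries low in B cell markers (0.0571). Against Obese, Stat5a rose by 0.60 ± 0.14 (SE) in LFCR (limma, adjusted p = 0.00226), 0.62 ± 0.14 (SE) in MCR (0.00589) and 0.45 ± 0.14 (SE) in ICR (0.0363). With 1 library left out, the MCR call was kept in 9 of 9 fits and the ICR call in 3 of 10. In the 6 other alternative fits they were kept in 5 and 3. Socs2, a feedback inhibitor that STAT5 induces, rose by 0.92 ± 0.23 (SE) in ICR against Obese (limma, adjusted p = 0.0117). It was lower in Obese than in Control by -0.70 ± 0.23 (SE) (0.0447), a call kept in 4 of the 10 fits that left out 1 library. The growth hormone, JAK2 and STAT5 list, which does not hold Ghr, had 6 tested genes. Of these, 0 were called higher and 2 lower in Obese than in Control, where 12.9% of all tested genes were called. Cdkn1a, a cell cycle inhibitor, was lower than Obese in LFCR by -1.44 ± 0.22 (SE), in MCR by -1.21 ± 0.23 (SE) and in ICR by -1.12 ± 0.22 (SE), with limma adjusted p-values of 5.6e-05, 0.00142 and 0.00199.

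Pappa encodes pappalysin-1, the protease that cleaves IGFBP4. It was a low gene, with means of 203 ± 83 (SD, n = 5) normalized counts in Control and 83.9 ± 5.83 (SD, n = 5) in Obese, and it fell by 1.01 ± 0.29 (SE) on the log2 scale (limma, adjusted p = 0.0219). That call was lost without Control 1 (0.0865), Obese 1 (0.0518) or Obese 5 (0.0519), and with the luminal covariate (0.126). Pappa was also lower in the 3 restricted diets together than in Control (limma, adjusted p = 0.0036), in 5 of 5 lanes. The call against Control was kept in all 19 fits that left out 1 library and with the luminal covariate. Over the 6 other alternative fits the log2 difference was between -1.23 and -0.88. These include the fit without the 8 libraries low in B cell markers, which leaves 1 MCR library. In LFD, with 654 in its highest library and a median of 159, Pappa was higher than in Obese by 1.21 ± 0.29 (SE) (limma, adjusted p = 0.0139), and the 3 restricted diets were lower than LFD by -1.20 ± 0.24 (SE) (0.00914). Neither of these calls held with the luminal covariate (0.603 and 0.225) or without the 8 libraries low in B cell markers (0.0774 and 0.191), and the former was lost with only the compared groups (0.0956).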

How the data were processed

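RNA-seq covered 29 libraries. Per the labels' protocols, TRIzol RNA was made into stranded total RNA libraries and sequenced with paired reads of 76 bases. The mm10 build, HTSeq 0.5.3p9, TopHat2 2.0.7 and DESeq2 are named in the submitters' processing notes. Neither the annotation nor the strand setting and transform is given in the sources used. The authors deposited log2 values, all 29 columns starting at 3.75. Undoing a variance-stabilising transform with that floor gave whole reads (within 0.01) for 100% of values, so values are read as such, an inference. The transform compresses low values.

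limma 3.58.1 (R 4.3.3) fitted 1 mean per group over all libraries to the log2 values, with trend and robust moderation, for genes at 10 or more normalized counts in at least 4 libraries. Calorie-restricted means were averaged with equal weight. Counts are group means ± SD. Groups came from the treatment label, and lanes from the column headers. No 2 replicates agreed within sampling noise. Alternatives were no filter, voom with TMM scaling, the compared groups only, lane or the luminal marker mean as a term, no libraries low in B cell markers, and 1 library left out at a time.

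The 10 genes and the lists were chosen with earlier results of these data known. All 10 are named, and for each of the 10 the 2 genes most alike. Other pathway genes were named from the up to 4 per list and comparison with the lowest adjusted p. Not all of those are named. Coordinates are from GENCODE vM21 (GRCm38), promoters from RefSeq. The analysis was tested on simulated data.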

Additional observations from a re-analysis of the deposited data

Results flagged for a closer look

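Each of the 10 genes was screened for a library far from the others of its group, and chance alone marks about 1 in 20 groups. Of the 60 groups, 4 were marked. Igf1r in Obese 3 had 2086 normalized counts, while the other Obese libraries lay between 2755 and 2903, and the gap took 0.841 of the range of the group. Irs1 in LFCR 3 had 10574 against 3855 to 4547 in the others, a gap of 0.837 of the range. Igfbp4 in MCR 2 had 10981 against 21921 to 23358 in the others, a gap of 0.916 of the range. Igfbp6 in MCR 2 had 637 against 1769 to 1971 in the others, a gap of 0.903 of the range. MCR 2 is the only MCR library that was not low in B cell markers.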

How the results depend on the processing

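No paired analysis was possible because no replicate number in the labels is shared between groups. Lane numbers in the column headers are shared, and lane entered as a term and as within-lane differences. In the fits other than those without 1 library, 563 results kept their direction and their side of the threshold, 204 lost their call, 4 gained one and 3 reversed. The reversals came with the luminal covariate in LFD against Obese, for Prlr (-0.26), Stc2 (-0.10) and Ptprf (-0.17).

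Counts of the 10 genes called changed as follows. Obese against Control gave 2 without a filter and with voom, 1 with only the compared groups, 1 with lane as a term, and 0 with the luminal covariate or without the libraries low in B cell markers. LFD against Obese gave 0 in those last 2 fits, and LFCR against Obese gave 1 with only the compared groups. Without the libraries low in B cell markers LFCR gave 3 and ICR 2 against Obese, and the restricted diets against Control 0. With the luminal covariate the last comparison gave 5. Counts over all genes also moved. With only the compared groups they were 1082 for Obese against Control, 140 for LFD and 1135 for MCR against Obese. With the luminal covariate they were 1609, 10 and 1436, and 4 for the restricted diets against LFD. Without the libraries low in B cell markers they were 628, 171 and 101, with 4 for the restricted diets against LFD and 1031 against Control. With lane as a term MCR gave 1590, the restricted diets against LFD 284 and the F-test 1, and without a filter the last 2 gave 417 and 4. The causes were not tested.

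With 1 library left out, the calls among the 10 ranged from 0 to 3 for Obese against Control, 1 to 1 for LFD, 1 to 3 for LFCR, 0 to 1 for MCR and 0 to 1 for ICR against Obese, 0 to 1 for the restricted diets against LFD and 3 to 5 against Control. Genes called ranged from 1090 to 3377, 456 to 1634, 3215 to 4382, 1202 to 4507, 1192 to 2013, 100 to 1760 and 3732 to 9788 in the same order, and from 0 to 505 in the F-test, the highest without MCR 2. The lane 4 libraries were the shallowest, at most 18212783 reads, and levels of the 10 genes were far above the filter in each.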

Other observations

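Over the 29 libraries, the log2 values of several of the 10 genes varied together, as a description of libraries that share groups, lanes and cell content. Igf1 and Ghr had a Pearson r of 0.82 over all libraries and 0.76 over the 21 libraries not low in B cell markers. Insr and Ghr had an r of 0.77, and Igf1 and Igfbp4 of 0.76, over all 29. Irs1 and Igfbp3 ran in opposite directions, with an r of -0.44 over the 29 and -0.66 over the 21.

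The genes most like each of the 10 over the 29 libraries were as follows. Igf1 was most like Steap4 (r = 0.932) and Hoxc8 (0.925), and Ghr most like Syap1 (0.945) and Sgcb (0.940). Insr was most like Ybx3 (0.948) and Agmo (0.948), and Igf1r most like Cttnbp2nl (0.815) and Il1rap (0.751). Irs1 was most like Gm9747 (0.949), the gene that overlaps it on the opposite strand, and then Tmem63b (0.844), and Irs2 most like Tmcc3 (0.799) and Sqstm1 (0.767). Igfbp3 was most like Dse (0.794) and Mfsd1 (0.786), and Igfbp4 most like Ndrg2 (0.929) and Hipk2 (0.919). Igfbp5 was most like Meg3 (0.881), an imprinted noncoding RNA gene, and 9430076C15Rik (0.875), and Igfbp6 most like Clec3b (0.926) and Adgrd1 (0.926). Each of these 20 values stayed at 0.665 or more over the 21 libraries not low in B cell markers.

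Among pathway genes, the 3 restricted diets together also differed from Control in several genes. Igfals, which encodes the acid-labile subunit that joins IGFBP3 and IGF-I in blood, was higher by 1.30 ± 0.29 (SE) on the log2 scale (limma, adjusted p = 0.00267). Grb10, a receptor-binding inhibitor, was higher by 0.99 ± 0.20 (SE) (0.00123), and Enpp1, an inhibitor of the insulin receptor, was lower by -1.11 ± 0.27 (SE) (0.00402). Eif4ebp1, the translation repressor that mTOR inactivates, was higher by 1.08 ± 0.21 (SE) (0.00106). Akt2 was higher by 0.73 ± 0.14 (SE) (0.000842). These 5 calls held in each alternative fit. In that comparison 28 of the 90 other pathway genes were higher and 17 lower. Of the 10 receptor-proximal inhibitors, 2 were higher and 6 lower, with a median log2 difference of -0.47, beside -0.02 over all genes. Of all tested genes 40.4% were called there, 19.9% as higher. Enpp1 was also called lower in Obese than in Control, as given above.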
